A study of Mus musculus with 3 samples.

Results

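The genes described here are 10 regulators of the passage from G1 into S phase: the D cyclins Ccnd1, Ccnd2 and Ccnd3, their kinases Cdk4 and Cdk6, the Cdk inhibitors Cdkn1a, Cdkn1b, Cdkn2c and Cdkn2d, and the retinoblastoma gene Rb1. Tcf1, the product of Tcf7, is an HMG-box DNA-binding factor of T cells, and its binding at these genes was mapped by chromatin immunoprecipitation and sequencing with a Tcf1 antiserum. A peak was counted for a gene if its midpoint lay within the gene's span on mm10, or if that gene was the nearest protein-coding gene within 100 kb. By this rule the 10 genes held 12 of 4519 peaks of conventional CD4 T cells and 9 of 3402 peaks of regulatory T cells (Treg cells), out of 21887 protein-coding genes in the annotation.

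Both cell types were sorted from spleens of wild-type Foxp3-Cre-GFP reporter mice aged 8 to 10 weeks, and both carried TCRb and CD4. Conventional cells were negative and Treg cells positive for CD25 and the GFP reporter. The labels give no further gate, so the conventional sort may hold CD4 cells in several states of activation, and one label calls it effector while its title and source call it conventional. Another library, from CD4 T cells of CD4-Cre+ Tcf1 fl/fl mice that lack Tcf1, was not analysed here. Each cell type has 1 library and 1 peak list with positions alone, so the depth is unknown, the number of mice behind each library is not given in the labels, and no test of a difference between the cell types was possible. A gene without a peak is one without an entry in that list, which gives no level of binding. Peaks stood at 3 (conventional) and 4 (Treg) of 6 T cell markers, 3 and 2 of 4 Treg markers, 1 and 0 of 2 CD8 markers, and none of 5 B cell and 4 myeloid markers, against 16.3% and 12.3% of all protein-coding genes. Il2ra and Ctla4 had a peak in both lists, Ikzf2 and Cd8b1 in the conventional list alone, and Foxp3 and Cd4 in neither. Peaks do not measure expression, so the sort was not checked by these counts.

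D cyclins are made when a resting lymphocyte receives growth signals, and they bind and activate Cdk4 and Cdk6. The active kinases phosphorylate the Rb1 protein, which then lets go of E2f transcription factors and so allows genes of DNA replication to be transcribed. INK4 inhibitors, among them p18 (Cdkn2c) and p19 (Cdkn2d), block Cdk4 and Cdk6, while the Cip/Kip inhibitors p21 (Cdkn1a) and p27 (Cdkn1b) act on a wider range of cyclin and kinase complexes. In T cells, p27 and p18 are known to hold quiescent cells back from division, and Ccnd3 is the D cyclin on which expansion of immature T cells mainly depends.

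Where a Tcf1 peak reached the promoter of a gene, the sequence under it can be read from RefSeq promoter windows of the GRCm38.p6 assembly, which run from 250 bases before to 50 bases after a start. Such windows were matched for 7 of the 10 genes (10 windows), and not for Ccnd1, Ccnd2 and Rb1. The stretches below are the parts of these windows that lie before the start and inside a peak, and for Cdkn2d, whose span reaches past its annotated start, only the bases beyond the span. They show the promoters that the comparison turns on: 1 under a peak of both lists (Cdk4), 4 under a conventional peak alone, and the upstream part of the window of Lockd, a noncoding RNA gene downstream of Cdkn1b, under a Treg peak alone. Each is written 5′ to 3′ on the strand of the gene, and capitals mark the motif matches described further on.

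Cdk4, chr10:127063341-127063534, plus strand, in both lists: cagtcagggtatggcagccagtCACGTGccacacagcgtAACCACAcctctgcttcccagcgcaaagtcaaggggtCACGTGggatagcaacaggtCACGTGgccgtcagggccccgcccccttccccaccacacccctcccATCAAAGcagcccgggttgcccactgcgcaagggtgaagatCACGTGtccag
Cdkn1b, chr6:134920175-134920400, plus strand, conventional list alone: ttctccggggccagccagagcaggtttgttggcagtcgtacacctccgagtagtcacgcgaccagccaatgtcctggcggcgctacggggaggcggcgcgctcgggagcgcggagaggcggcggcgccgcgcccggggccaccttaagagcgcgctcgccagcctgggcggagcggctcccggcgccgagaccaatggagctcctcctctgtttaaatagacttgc
Cdkn2c, chr4:109666757-109666842, minus strand, conventional list alone: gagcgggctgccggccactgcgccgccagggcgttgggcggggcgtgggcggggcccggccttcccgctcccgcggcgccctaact
Ccnd3, second start, chr17:47593426-47593466, plus strand, conventional list alone: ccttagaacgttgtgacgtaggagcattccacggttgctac
Cdkn2d, chr9:21291422-21291459, minus strand, conventional list alone, bases beyond the gene span: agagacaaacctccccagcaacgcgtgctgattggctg
Lockd, chr6:134928842-134928889, plus strand, Treg list alone: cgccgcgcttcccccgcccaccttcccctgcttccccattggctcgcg

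Tcf1 peaks were present at 8 of the 10 genes in the conventional list and at 6 in the Treg list, and all 6 also had a conventional peak. The shares over all protein-coding genes were 16.3% for the conventional list, 12.3% for the Treg list and 8.17% for both. Peaks in both lists stood at 2 D cyclins (Ccnd2 and Ccnd3), at 1 kinase (Cdk4), at the Cip/Kip pair (Cdkn1a and Cdkn1b) and at Rb1. The INK4 genes Cdkn2c and Cdkn2d had conventional peaks alone, a state found at 8.1% of all protein-coding genes. None of the 10 had a Treg peak without a conventional one in the full lists (4.13% of all genes), and Ccnd1 and Cdk6 had a peak in neither list. The median number of peaks per gene was 1 among the 10 genes in each list and 0 over all protein-coding genes in each list. The genes were not matched to others on expression or on chromatin state, so whether these shares are particular to cell cycle genes was not tested.

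An overlap of 1 bp or more with a Treg peak was found for 7 of the 12 conventional peaks, or 58.3% (95% Clopper-Pearson interval 27.7% to 84.8%), against 42.8% of the whole conventional list. In the other direction it was 7 of the 9 Treg peaks, or 77.8% (40.0% to 97.2%), against 56.9% of the whole Treg list. These intervals cover counting error only and take the peaks as independent, though Ccnd3 holds 4 of the 12 and 3 of the 9. Both rest on the same 7 pairs. The whole-list shares lie inside them, which is no test of these genes against the lists. The other 5 conventional and 2 Treg peaks were in 1 list alone: they overlapped nothing in the other list, and its midpoints were all more than 1000 bp away. In the 7 overlapping pairs, midpoints lay 19 to 112 bp apart, with a median of 44 bp against 59 bp over 1934 shared conventional peaks. The conventional peak was the wider one in 5 of the 7 pairs and in 69.3% of all shared pairs.

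**Figure D1:**
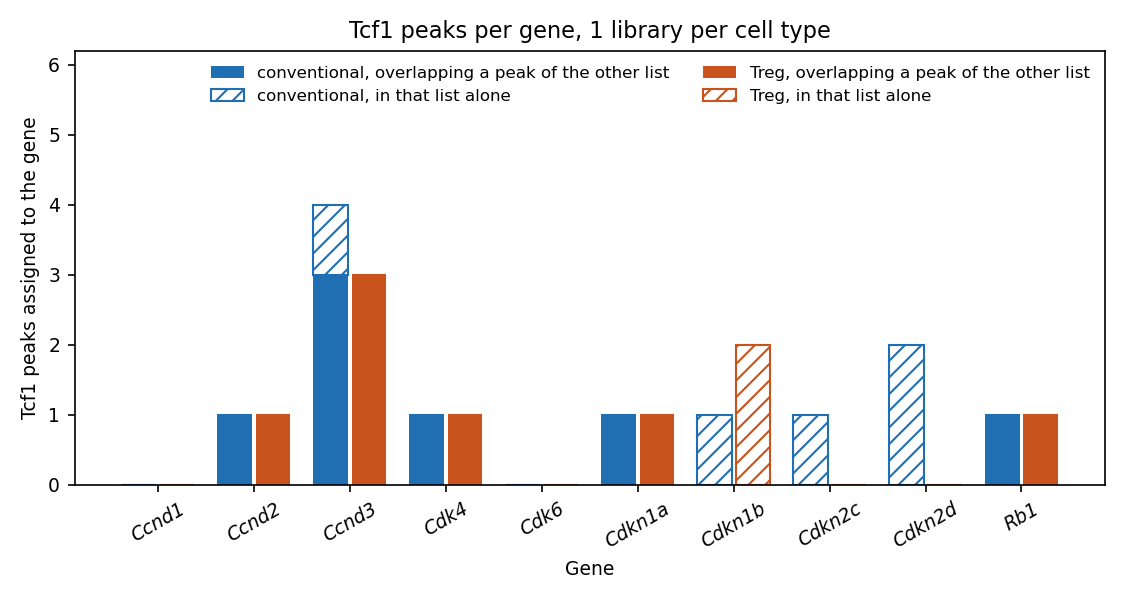
Number of Tcf1 peaks assigned to each of the 10 genes (y axis) in the conventional (blue) and Treg (orange) lists, with peaks that overlap the other list filled and peaks in 1 list alone hatched. Ccnd3 has 4 and 3 peaks, Cdkn2c and Cdkn2d have conventional peaks alone, and Ccnd1 and Cdk6 have none.

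Among the D cyclins, Ccnd3 carried most of the peaks, Ccnd2 carried 1 in each list just outside the upper-coordinate end of its span, and Ccnd1 had none. Ccnd3 (chromosome 17, 47505051 to 47599689) had 4 conventional and 3 Treg peaks, all of them inside its span of 94639 bp. At least 4 conventional peaks were assigned to 0.27% of protein-coding genes, and at least 3 Treg peaks to 0.388%. Both thresholds are the counts of Ccnd3 itself, and Ccnd3 is among the genes counted. Genes were not matched on span length for these shares. Of the genes with longer spans, Cdk6 (190005 bp) had 0 peaks and Rb1 (133094 bp) had 1 in each list.

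The 3 Treg peaks of Ccnd3 each overlapped a conventional one. The first pair had midpoints 3193 and 3153 bp downstream of the first annotated start, with the conventional peak at chr17:47508028-47508460 and the Treg peak at chr17:47507901-47508508, which contained it. In this pair the conventional peak was 433 bp wide, wider than 51.1% of its list, and the Treg peak was 608 bp wide, wider than 89.4% of its list. Among the Ccnd3 pairs this was the one where the Treg peak was the wider.

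The next pair of Ccnd3 peaks, chr17:47531429-47531953 (conventional, 525 bp) and chr17:47531412-47531878 (Treg, 467 bp), had midpoints 26640 and 26594 bp from the start. The third, chr17:47533664-47534165 (conventional, 502 bp) and chr17:47533729-47534172 (Treg, 444 bp), had midpoints 28863 and 28899 bp from it. These peaks form a doublet inside the gene, with a gap of 1710 bp between the conventional ones, and all 4 were wider than 66.6% to 74.1% of their lists. The last Ccnd3 peak (chr17:47593426-47593738) was in the conventional list alone. It spanned the second annotated start of the gene, at 47593467, and at 313 bp it was wider than 13.0% of its list. The nearest Treg midpoint to it was 7394 bp away.

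Peaks that fell to the neighbours of Ccnd3 added to the group. Bysl, a ribosome biogenesis gene whose span meets the far end of Ccnd3, held a shared peak 1341 bp (conventional midpoint) and 1287 bp (Treg midpoint) beyond the Ccnd3 span. A further shared pair lay over the start of Bysl, next to Med20, 11921 and 11803 bp beyond the Ccnd3 span. On the other side, a Treg peak of 281 bp in Taf8, a subunit gene of the general factor TFIID, lay 2956 bp before Ccnd3 and had no conventional counterpart. Within 10 kb of the Ccnd3 span there were thus 5 peaks in each list, whichever gene they were assigned to.

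**Figure D2:**
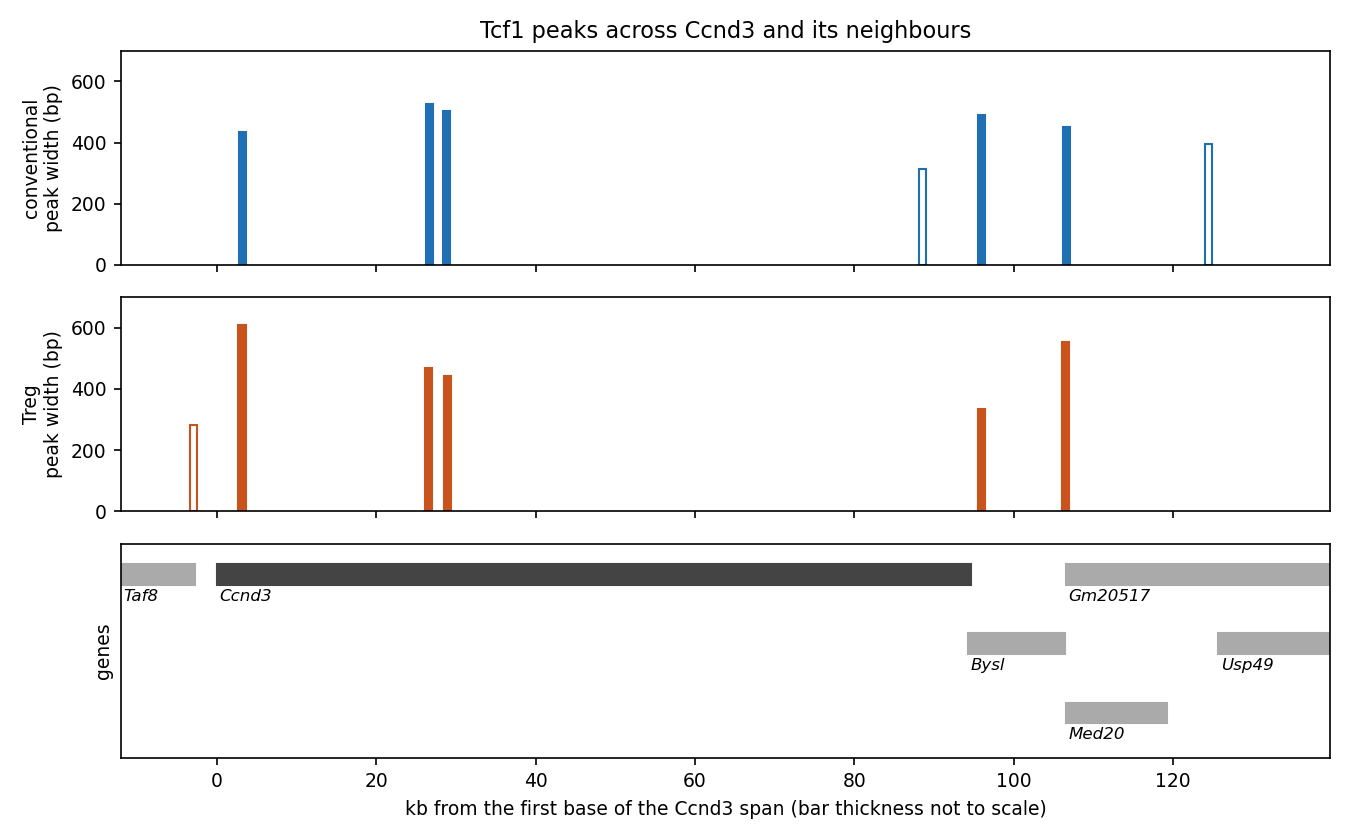
Tcf1 peaks across Ccnd3 and its neighbours, as peak width in bp (y axes) against the distance in kb from the first base of the Ccnd3 span (x axis), with filled bars for peaks that overlap the other list and open bars for peaks in 1 list alone. The 3 shared pairs inside Ccnd3 have conventional midpoints at 3193, 26640 and 28863 bp, the conventional peak at the second start stands at 88531 bp, and gene spans are drawn below.

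Ccnd2 (chromosome 6, 127125162 to 127152188) had 1 pair, chr6:127152444-127152950 in the conventional list and chr6:127152531-127152951 in the Treg list. Midpoints lay 509 and 553 bp outside the upper end of the span, and 99.8% of the narrower peak was covered by the other. Widths were 507 bp and 421 bp, with similar ranks in the lists (wider than 67.3% and 64.5% of peaks). No start or strand was matched for Ccnd2, so whether its upper-coordinate end is the start of the gene was not read here. The same peaks lay inside 9330179D12Rik, a long noncoding RNA gene that overlaps that end of Ccnd2. The 2 annotated starts of 9330179D12Rik were not under a peak.

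Ccnd1 (chromosome 7, 144929931 to 144939831) had no assigned peak. The closest conventional peak, 310 bp wide, lay 15015 bp away in the promoter window of LTO1 (chr7:144914762-144915071), and the closest Treg peak lay 347272 bp away. Ccnd1 was thus the one D cyclin of the 3 with an empty neighbourhood of 10 kb in both lists.

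Of the kinases, Cdk4 carried a shared peak over its start, and Cdk6 had no peak. At Cdk4 (chromosome 10, 127063535 to 127067288) the conventional peak (chr10:127063341-127063707, 367 bp) lay wholly inside the Treg peak (chr10:127063161-127063721, 561 bp). Midpoints were 11 and 94 bp upstream of the start. The Treg peak was wider than 85.9% of its list and the conventional peak than 32.3% of its own.

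The Cdk4 promoter printed above held the only TCF/LEF match of the 10 windows, written ATCAAAG, which is CTTTGAT on the other strand, with its first base 52 bp upstream of the start. It also held 1 RUNX motif (AACCACA, 155 bp upstream) and 4 E-boxes (CACGTG), whose first bases were 172, 118, 98 and 11 bp upstream. All 6 matches lay within both peaks. The E-box is the motif of Myc and related factors. Of 32851 windows of the same length, 8 (0.024%) held at least 4 E-boxes. This threshold was set at the Cdk4 count after it was seen, and Cdk4 is among the 8.

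Cdk6 (chromosome 5, 3341004 to 3531008), the other kinase of D cyclins, had its closest Treg peak 12878 bp beyond the span, at 304 bp wide over the start of Fam133b (chr5:3543735-3544038). The closest conventional peak lay 521973 bp away and was assigned to Akap9. No peak of either list lay in the Cdk6 span or within 10 kb of it.

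**Figure D3:**
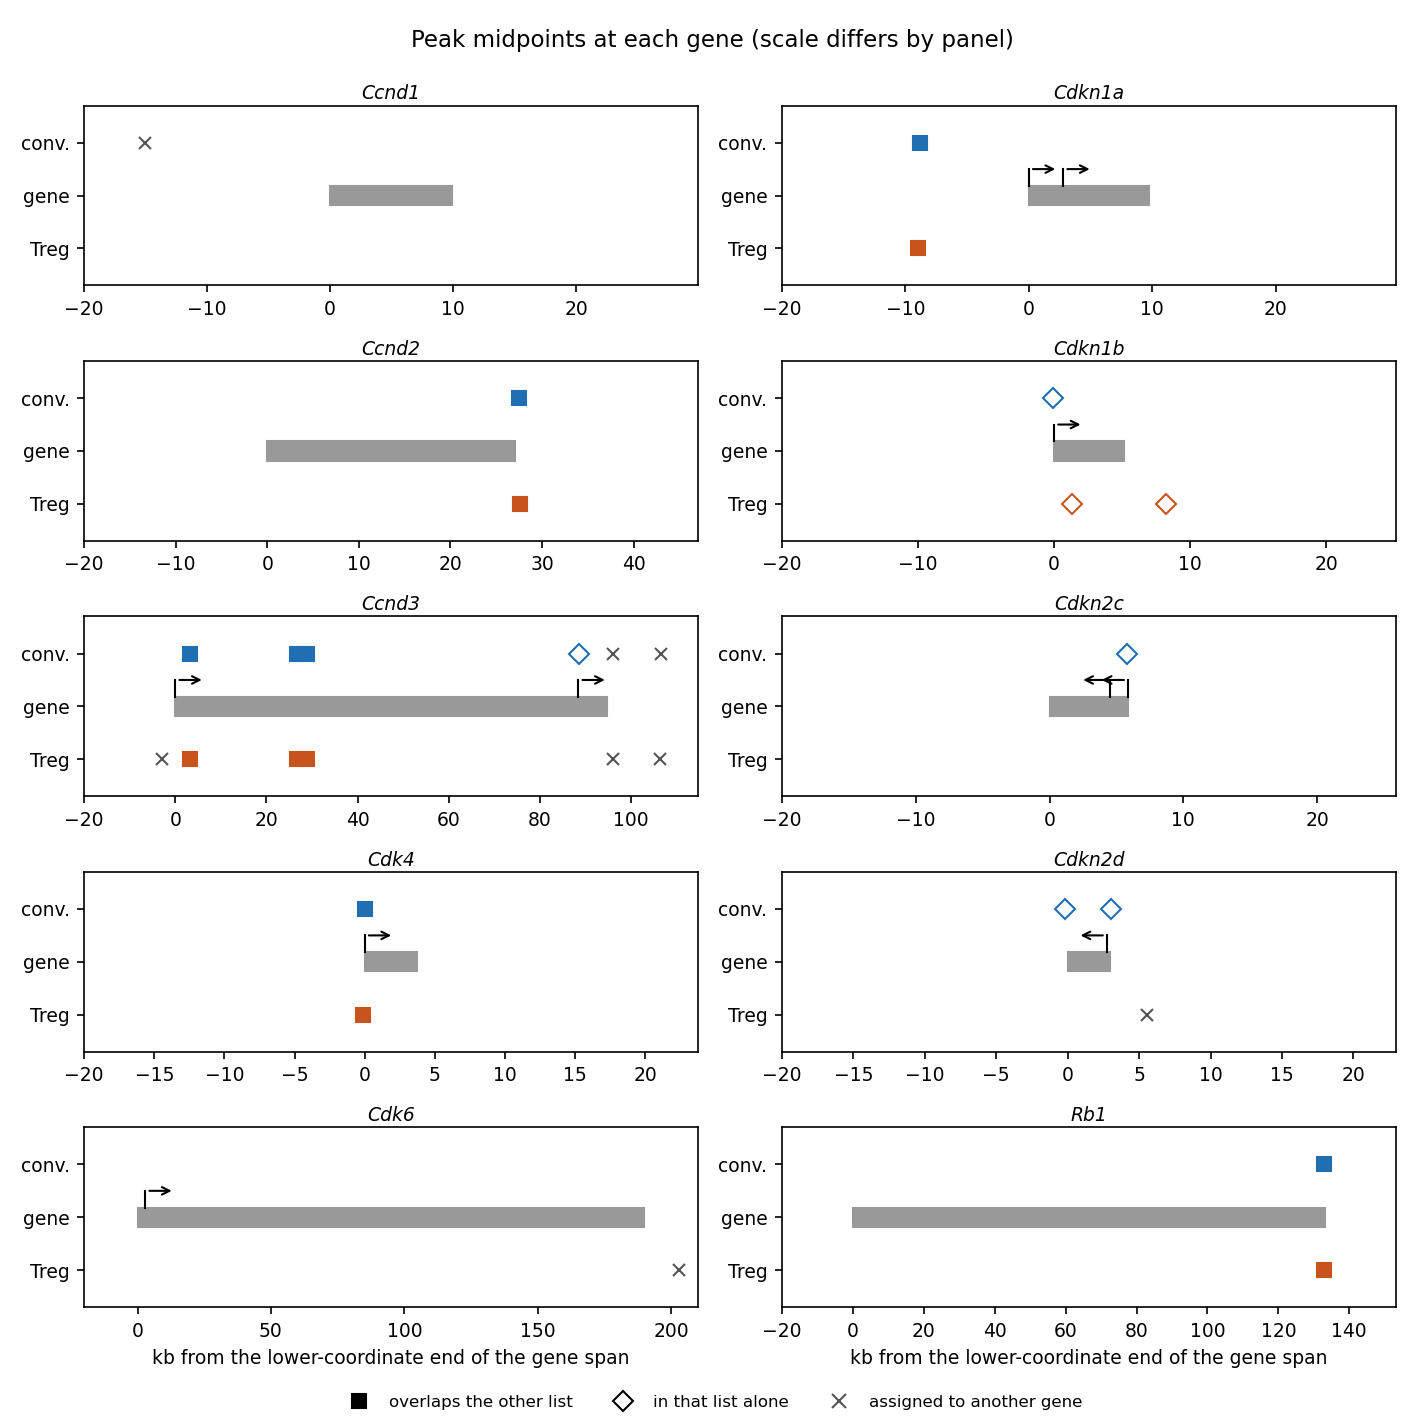
Midpoints of Tcf1 peaks at each gene, in kb from the lower-coordinate end of the gene span (grey), with conventional peaks above and Treg peaks below it and arrows at the annotated starts where one was matched. Squares overlap the other list, open diamonds are in 1 list alone, and crosses belong to another gene; scales differ between panels. Ccnd2, Cdk4 and Rb1 show a shared pair at an end of the gene, and Cdkn1b shows peaks at different places in the 2 lists.

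The Cip/Kip genes both had peaks in both lists, but the peaks of Cdkn1b did not coincide. At Cdkn1a (chromosome 17, 29090979 to 29100722), which encodes p21, there was no peak within the span. A shared pair lay upstream of its first start, with midpoints 8831 bp (chr17:29081869-29082428, conventional, 560 bp) and 8943 bp (chr17:29081847-29082226, Treg, 380 bp) from it. Here the conventional peak had the higher rank, wider than 75.3% of its list against 54.4% for the Treg peak. The gene nearest to this pair is not Cdkn1a but Trp53cor1, the noncoding RNA gene known as lincRNA-p21, whose span ended 3022 bp from the conventional and 2910 bp from the Treg midpoint. The pair therefore stands between the 2 genes, and counted for Cdkn1a because the rule takes protein-coding genes.

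Cdkn1b (chromosome 6, 134920401 to 134925525), which encodes p27, had 1 conventional peak at its start and 2 Treg peaks downstream. The conventional peak (chr6:134920175-134920508, 334 bp) had its midpoint 60 bp upstream of the start, and it was wider than 21.0% of its list. The first Treg peak (chr6:134921561-134921843, 283 bp) lay inside the gene, with its midpoint 1301 bp downstream of the start, and was wider than 20.3% of its list. Between the conventional and this Treg peak there was a gap of 1052 bp, and their midpoints were 1361 bp apart, not far past the limit of 1000 bp for peaks in 1 list alone.

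The second Treg peak at Cdkn1b (chr6:134928441-134928889, 449 bp) lay 3140 bp beyond the gene and was wider than 70.7% of the Treg list. It reached into the promoter window of Lockd, whose start is at 134929092 and whose name stands for a noncoding RNA downstream of Cdkn1b, and its midpoint was 427 bp from the Lockd span. No conventional midpoint lay within 8324 bp of it. In the conventional list, a peak of 893 bp in Gpr19, 22263 bp before Cdkn1b, was wider than 95.8% of the list and had no Treg counterpart.

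The INK4 genes had 3 peaks, all of them in the conventional list and none shared. Cdkn2c (chromosome 4, 109660876 to 109666756), which encodes p18, had 1 conventional peak over its first start (chr4:109666526-109666842, 317 bp), with the midpoint 72 bp downstream of it. That peak was narrow, wider than 14.5% of the list, and the closest Treg peak lay 812788 bp from the gene. The GC-rich stretch printed above for Cdkn2c had 82.6% G and C, the highest of the stretches shown.

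Cdkn2d (chromosome 9, 21288459 to 21291421), which encodes the INK4 protein p19, had a conventional peak at each end of its short span of 2963 bp. One (chr9:21291253-21291691, 439 bp) overlapped the promoter window, with its midpoint 263 bp upstream of the annotated start, and was wider than 52.8% of the list. The other (chr9:21287923-21288607, 685 bp) lay past the far end of the gene, with its midpoint 194 bp outside the span, and was the widest of the peaks at the 10 genes, wider than 88.0% of its list. The closest Treg peak (460 bp) lay 2563 bp outside Cdkn2d and was assigned to Ap1m2, and its midpoint was 2512 bp from that of the conventional peak at the start. The Treg list thus held a peak near Cdkn2d, but at neither position of the conventional list.

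Rb1 (chromosome 14, 73192858 to 73325951), the substrate of the D cyclin kinases, had 1 shared pair at the upper-coordinate end of its span. No start or strand was matched for Rb1, so whether that end is the start was not read here. The conventional peak (chr14:73325449-73326006, 558 bp) contained the Treg peak (chr14:73325594-73325899, 306 bp), and the midpoints were 224 and 205 bp inside that end. The conventional peak was wider than 75% of its list and the Treg peak than 29.0%, the reverse of the order at Cdk4. No other peak was assigned to Rb1 over the rest of its span.

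Among the 7 genes with a promoter window, conventional peaks lay over more of the promoters than Treg peaks did. Ccnd1, Ccnd2 and Rb1 had no window and are outside this count. Ccnd2 and Rb1 each had a shared pair within 1 kb of a span end. A conventional peak overlapped a promoter window at 5 of the 7 genes with one (Ccnd3, Cdk4, Cdkn1b, Cdkn2c and Cdkn2d), and a Treg peak at 1 (Cdk4). Over 17492 protein-coding genes with a window, the shares were 11.3% for conventional peaks and 7.11% for Treg peaks, and 6.56% had a conventional peak over a window and no Treg peak. Midpoints within 1 kb of an end of the assigned gene were found for 7 of 12 conventional peaks and 3 of 9 Treg peaks, against 48.8% and 44% of all assigned peaks.

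The conventional list is the longer one and its peaks are wider, with a median of 428 bp against 366 bp, and the list lengths may differ with depth. The narrowest widths differed too, at 279 bp in the conventional and 240 bp in the Treg list. When the conventional list was reduced to its 3402 widest peaks, the length of the Treg list, the narrowest peak kept was 346 bp wide. The peaks at the starts of Ccnd3 (313 bp), Cdkn1b (334 bp) and Cdkn2c (317 bp) then dropped out. Cdkn1b was then left with Treg peaks alone. A conventional peak remained at 6 of the 10 genes (12.9% of all genes) and over the promoter window of 2 of the 7 genes (8.9% of all genes with a window). The 2 were Cdk4 and Cdkn2d, and both Cdkn2d peaks were kept. Of the 5 promoters under a conventional peak, 3 were thus covered by peaks narrower than any kept at equal length. Among the 2259 widest conventional and 1701 widest Treg peaks, 5 genes had a conventional peak (Ccnd2, Ccnd3, Cdkn1a, Cdkn2d and Rb1, against 9.01% of all genes) and 5 had a Treg peak (Ccnd2, Ccnd3, Cdk4, Cdkn1a and Cdkn1b, against 6.57%). In those reduced lists Cdk4 and Cdkn1b had Treg peaks alone, and Cdkn2d and Rb1 had conventional peaks alone. The share of all genes with peaks in 1 list alone was not computed for the reduced or equal-length lists.

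**Figure D4:**
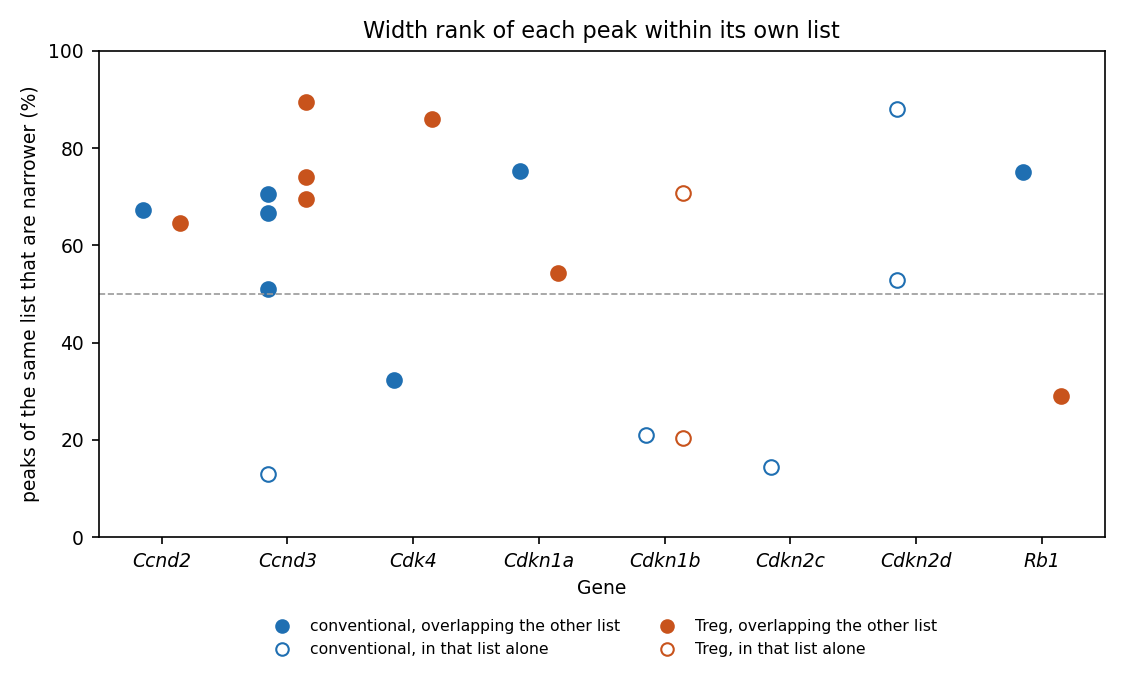
Width rank of every peak at the 8 genes that had one, as the percent of peaks of the same list that are narrower (y axis), with conventional peaks in blue, Treg peaks in orange, filled circles for peaks that overlap the other list and open circles for peaks in 1 list alone. The dashed line marks the middle of each list, and the unshared peaks at Ccnd3, Cdkn1b (conventional) and Cdkn2c stand at 13.0%, 21.0% and 14.5%.

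Shared and unshared peaks were then compared by width. The 7 shared conventional peaks were 367 to 560 bp wide, with a median of 507 bp, against 497 bp over all shared conventional peaks. The 5 unshared ones were 313 to 685 bp wide, with a median of 334 bp against 388 bp over all conventional-only peaks. In the Treg list the 7 shared peaks were 306 to 608 bp wide (median 444 bp, against 408 bp over all), and the 2 unshared peaks, both at Cdkn1b, were 283 and 449 bp wide. The ranges of shared and unshared widths overlapped in both lists: the shared Cdk4 conventional peak and the shared Rb1 Treg peak were narrower than most of their lists, and the widest peak, at Cdkn2d, was unshared.

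The promoter windows were searched on both strands for 9 motifs: TCF/LEF as CTTTGAT and CTTTGAA, which differ in the last base, RUNX as TGTGGTT, ETS as CGGAAGT, AP-1 as TGANTCA, CREB as TGACGTCA, E2F as TTTGGCGC and TTTCCCGC, and the E-box CACGTG. A match is a description of the letters and not evidence of binding by the factor. Among 32851 windows, CTTTGAT was found in 3.73%, CTTTGAA in 5.14%, TGTGGTT in 5.27%, CGGAAGT in 6.42%, TGANTCA in 7.81%, TGACGTCA in 1.79%, TTTGGCGC in 0.514%, TTTCCCGC in 1.07% and CACGTG in 7.15%. In the 2516 windows under a conventional peak the shares, in the same order, were 4.65%, 4.73%, 4.05%, 20.5%, 3.82%, 4.65%, 1.39%, 3.3% and 12.8%. In the 1597 windows under a Treg peak they were 6.32%, 5.01%, 3.94%, 20%, 3.63%, 5.39%, 1.82%, 2.82% and 12%. The TCF/LEF spelling CTTTGAT, the ETS and CREB motifs, both E2F spellings and the E-box were thus more frequent under peaks of both lists than over all windows. The TCF/LEF spelling CTTTGAA and the RUNX and AP-1 motifs were less frequent.

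Of the 10 windows at these genes, 1 held CTTTGAT (Cdk4), 1 held TGTGGTT (Cdk4) and 3 held CACGTG (Cdk4, Cdk6 and the second Cdkn2c window), and the other 6 motifs were in none. The Cdk6 and Cdkn2c matches lay outside any peak. The 4 promoters under a conventional peak alone thus held none of the 9 motifs in these windows, which says nothing of sequence elsewhere under the peaks. Base composition differed with the peaks as well: the median share of G and C was 52.7% over all windows, 63.7% under conventional peaks and 64.0% under Treg peaks, and it ran from 44.0% to 73.3% in the 10 windows.

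Other genes of the cell cycle were then counted in 4 lists, to be read against the shares over all protein-coding genes of 16.3% with a conventional peak, 12.3% with a Treg peak and 8.17% with both. Of 26 genes, other cyclins and cyclin-dependent kinases together with Mnat1, 13 had a conventional and 8 a Treg peak, and the 8 had both. Those with most peaks were Cdk17, with 2 conventional and 3 Treg peaks, Ccnt2, which partners Cdk9 in transcription elongation, with 2 in each list, all shared, and Ccnl1, a cyclin of RNA processing, with 2 and 1, none shared. Ccnk, Ccng2, Cdk8, Cdk9 and Cdk13 tied with 1 shared peak in each list. No peak was assigned to Ccna1, Ccna2, Ccnb1, Ccnb2, Cdk1 or Cdk2, the cyclins and kinases of S phase and mitosis, nor to Ccne2, while Ccne1, the other cyclin E gene, had 1 conventional peak, which lay more than 10 kb outside its span. These genes and those named below without a peak were chosen for naming with their values known.

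A list of 16 genes held other inhibitors and regulators of protein turnover together with Cdc25a, Cdc25b, Cdc25c, Wee1, Trp53 and Mdm2. Of the 16, 2 had peaks, in both lists, a share near that over all genes (16.3% conventional, 12.3% Treg). Neither of the 2 is a Cdk inhibitor gene. Fbxw7, which targets cyclin E and Myc for degradation, had 2 shared peaks in each list, and Ambra1, which directs D cyclins to degradation, had 1. No peak was assigned to Cdkn2a or Cdkn2b, the remaining INK4 genes, or to Cdkn1c, the other Cip/Kip gene. A list of 17 genes held pocket proteins and E2f factors together with Tfdp1, Tfdp2, Lin9, Lin37, Lin52, Lin54 and Mybl2. Of the 17, 6 had a conventional and 5 a Treg peak, against 16.3% and 12.3% of all genes. The 6 include Lin9 and Lin54, with conventional peaks alone, and the 5 include E2f6, with a Treg peak alone. These genes were named after their values were seen. Rbl1, E2f5 and E2f7 had 1 shared peak each, while Rbl2, a relative of Rb1, had 1 peak in each list that did not overlap.

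Of 20 genes of DNA replication and proliferation, peaks stood at 6 in the conventional list and at 0 in the Treg list, 1 unshared peak at each, against 16.3%, 12.3% and, for a conventional peak without a Treg peak, 8.1% of all genes. They were Mcm2, Mcm4, Pcna, Orc1, Aurka and Aurkb, named after their values were seen. The median number of peaks per gene was 0.5 conventional and 0 Treg peaks for the other cyclins and kinases, 0 in both lists for the other 3 groups, and 0 in both over all protein-coding genes. These lists share the limits of the 10 genes: 1 library per cell type, and no match on expression. Their counts come from the full lists of 4519 conventional and 3402 Treg peaks, and were not repeated at equal length.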

How the data were processed

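Peak lists of 2 of the 3 samples were used, 1 per cell type, as deposited by the authors. Each holds 3 columns (chromosome, start and end on mm10) and no read count, height or p-value. Tools listed without roles, per the submitters' processing notes, are Bowtie2 2.3.4.1, MACS2 2.1.1 and FastQC. The authors call the lists filtered and the sources used here do not say how. Libraries were amplified with 18 to 21 PCR cycles, per the labels' protocols.

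Positions are printed 1-based. Genes are spans from a RefSeq table of GRCm38.p6, whose primary chromosomes are those of mm10, and starts and strands come from RefSeq promoter windows of that assembly. Ties in nearest gene were kept. Width rank was used in place of a score within a list, and its relation to strength of binding was not tested. Computation used Python 3.11.15, numpy 2.4.6, pandas 2.3.3, scipy 1.17.1 and matplotlib 3.10.9, and was tested on simulated data. All 10 genes are named. From each of 4 gene lists those with peaks in both lists are named, or the 4 with most peaks where there are more, with ties kept. The members and lists were chosen with earlier results of these data known. Sequence beyond promoter windows was not used here.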

Additional observations from a re-analysis of the deposited data

How the results depend on the processing

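Over 9 alternatives, 60 of 68 recomputed counts were within 1.5 times of the reported ones. Many of these could not change, so the total does not measure robustness. All assigned peaks lay within 8943 bp of their gene. The 7 shared pairs overlapped by at least 94.2% of the shorter peak, with midpoints at most 112 bp apart. The Treg list at equal length is the full list. Some counts lay at the 1.5 limit, such as 4 genes with a Treg peak against 6 under the nearest gene of any type. Distance limits of 20 kb and 10 kb, merging of peaks within 1000 bp, and other definitions of overlap (50% of the shorter peak, or midpoints within 500 bp) changed no count. Among the 2259 widest conventional and 1701 widest Treg peaks, the genes with a conventional peak numbered 5. Lists cut by width kept each peak's class from the full lists, and overlap was not recomputed. By that class, the conventional-only peaks among the widest numbered 2 and the Treg-only peaks 1. The Cdk4 Treg peak and the Rb1 conventional peak counted as shared there, though their partners had dropped out. With lists of equal length the conventional-only peaks numbered 2, both at Cdkn2d, and Cdkn1b had Treg peaks alone. In the lists of widest peaks Cdk4 and Cdkn1b had Treg peaks alone, and Cdkn2d and Rb1 had conventional peaks alone. Counting any peak within 10 kb of a span gave 4 Treg-only peaks, and the nearest gene of any type gave 1, since the Lockd peak then left Cdkn1b. With that rule the pairs at Ccnd2 and Cdkn1a also fell to noncoding genes. Genes with a conventional peak over a promoter window numbered 2 at equal length and 1 among the widest peaks, alternatives chosen after seeing the data. No paired analysis was possible because each cell type has 1 library. Without read counts, depth cannot be weighed against any missing peak.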
